A study of Mus musculus with 12 samples.

Results

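The genes of the proteasome, the protease complex that breaks down ubiquitin-tagged proteins, were followed in the kidneys of mice after renal ischemia. Members were taken by name: the gene symbols that start with Psma, Psmb, Psmc, Psmd, Psme, Psmf or Psmg followed by a digit, with a mean over the 12 kidneys of at least 1 CPM. CPM is the count of a gene scaled to a library total of 1000000. Of 23420 genes in the count table, 49 had such a symbol and 42 of them reached the level. The other 7 were Psma8, Psmb8, Psmb9, Psmb11, Psmc3ip, Psmg3 and Psmg4. Psmc3ip encodes a partner of a proteasome ATPase that works in meiosis rather than a subunit, so the level left no gene among the members that is not a subunit, activator, inhibitor or assembly factor. The immunoproteasome genes Psmb8, Psmb9, Psmb10, Psme1 and Psme2 are described apart, and 3 of these 5 were members.

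The study asked how anaesthesia alters the response of the kidney to ischemia. RNA from kidneys of male C57BL/6J mice, whose middle part had been kept for histology, was sequenced as poly(A)-selected, stranded libraries, with 4 control kidneys and 8 ischemic kidneys in 2 sets of 4. The labels give every sample, the controls included, the same treatment text: clamping of the renal pedicle for 20 min and removal of the kidney after 24 h. By the study's methods, the controls were normal kidneys taken at nephrectomy. The clamp was a thread with silicone tubing laid around the pedicle on an earlier day. The mice of the ischemic groups had thus undergone surgery under ketamine and xylazine before the ischemia. The methods describe this surgery with and without removal of the right kidney, and do not say which the sequenced mice had. Against these controls, ischemia cannot be told apart from the earlier surgery, the clamp or loss of the other kidney. The study's results name ketamine and xylazine for the mice anaesthetised during the ischemia. For conscious mice they name brief isoflurane to tighten the clamp, and the methods give such sedation to close and to open it. The labels contradict each other on which set was which. The samples titled anaesthetised carry the group entry conscious, and those titled conscious carry the group entry anaesthesia. They are called set A (titled anaesthetised) and set B (titled conscious) here, and no direction between them can be assigned to anaesthesia.

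Each kidney had between 15367342 and 44793350 counts in genes. In a principal component analysis of log2 CPM, the first component (26.5% of the variance) parted controls from ischemic kidneys. On the second (12.2%), set B replicate 4 stood at 149, against -41.4 to 25.6 in the other kidneys. For set B, the count of members called and their median log2 fold change are therefore also given without that kidney. So are the values against control of named genes that then changed their call or moved by over 1.5-fold. Other counts of set B include that kidney. All 9 nephron markers had counts, and their summed level was 7603 to 8496 CPM in controls, 1538 to 1883 CPM in set A and from 1650 to 2120 CPM in set B. Of these 9, Lrp2 and Slc34a1 of the proximal tubule and Slc12a1 of the thick ascending limb fell in each ischemic set, and none rose. That is 33.3%, beside 11.7% of all genes that fell in set A and 11.9% in set B by the test described below. The log2 fold change over control was above 0 for 5 of the 9 in set A and for 4 in set B. The 12 leukocyte markers summed to 46.7 to 66.6 CPM in controls, 12.3 to 30.6 CPM in set A and from 13.6 to 36.3 CPM in set B. Csf1r was the largest part of each group's mean, and Cd8a and S100a8 had no count in any kidney. Of 6 leukocyte markers tested, Csf1r and Cd3e fell in each ischemic set against control and none rose. That is 33.3%, beside the same 11.7% and 11.9% of all genes, and 3 of the 6 lay above 0 in each set. The part of these marker levels in the proteasome values was not tested, and in RNA of bulk kidney tissue fewer cells of a type and less RNA per cell cannot be told apart. The table holds few or no counts for some genes that most cells transcribe. B2m, the light chain of MHC class I, had at most 31 counts in a control kidney, while its partner H2-K1 averaged 1228 CPM. A gene listed at or near 0 is therefore given as listed, not as silent.

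The proteasome is built from a barrel and its caps. The 20S core stacks rings of alpha subunits, which form the gate, and rings of beta subunits, which hold the proteolytic sites. The 19S regulatory particle sits on the core: its base carries the ATPases that unfold substrates and the scaffolds that receive ubiquitin chains, and its lid removes those chains. Other activators, PA28 and PA200, can bind the core in place of the 19S particle. The transcription factor Nfe2l1 raises transcription of subunit genes when proteolysis falls short, and interferon signalling brings in the immunoproteasome subunits, which shift cleavage towards peptides for MHC class I. In the kidney, tubule cells carry a large protein turnover, and ischemia leaves damaged proteins behind.

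Promoters are shown for the 4 core and 19S genes with the largest rises over control among those past the threshold in each comparison, for Psme1, which rose in set B, and for Psme4, the member that fell. RefSeq promoter windows (GRCm38.p6) were found for 35 of the 42 members. Each stretch runs 5′ to 3′ on the gene's strand, from 100 bases before the RefSeq transcription start to 20 bases from it, and capitals mark motif matches on either strand.
Psmd11 (chr11:80428515-80428634, plus strand): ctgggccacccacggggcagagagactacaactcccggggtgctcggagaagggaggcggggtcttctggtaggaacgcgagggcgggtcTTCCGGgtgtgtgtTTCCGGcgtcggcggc
Psma7 (chr2:180042445-180042564, minus strand): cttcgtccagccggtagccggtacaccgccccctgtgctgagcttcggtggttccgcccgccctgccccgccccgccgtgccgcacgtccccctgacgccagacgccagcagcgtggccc
Psmd14 (chr2:61711594-61711713, plus strand): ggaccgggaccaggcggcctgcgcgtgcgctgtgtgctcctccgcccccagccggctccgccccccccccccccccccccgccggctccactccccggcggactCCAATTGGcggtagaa
Psmb3 (chr11:97703334-97703453, plus strand): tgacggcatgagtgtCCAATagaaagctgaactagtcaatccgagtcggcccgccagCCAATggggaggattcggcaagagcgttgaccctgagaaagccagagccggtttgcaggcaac
Psme1 (chr14:55578394-55578513, plus strand): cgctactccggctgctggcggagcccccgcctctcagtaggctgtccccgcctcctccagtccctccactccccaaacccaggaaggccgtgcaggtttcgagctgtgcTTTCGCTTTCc
Psme4 (chr11:30771675-30771794, plus strand): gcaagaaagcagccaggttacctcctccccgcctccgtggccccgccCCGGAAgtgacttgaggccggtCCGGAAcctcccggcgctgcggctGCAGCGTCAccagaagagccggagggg

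Psmd11 and Psme4 each hold a pair of ETS cores, Psmd14 and Psmb3 hold CCAAT boxes (in Psmd14 a pair that overlaps on opposite strands), and Psme1 holds an interferon-type element. The Psma7 stretch holds none of the motifs searched. Over whole windows of 300 bases, the ETS core (CCGGAA), which was added after the sequences had been read, was found in 52.6% of the 38 member windows. Its share was 14.9% of all 32851 RefSeq windows and 25.8% of windows of genes tested here. The interferon element (GAAANNGAAA) was in 10.5% of member windows, in Psme1, Psmb3, Psmd4 and Psmd9. Its share was 3.44% of all windows and 2.67% of those of genes tested. The antioxidant response core (TGACNNNGC), which Nfe2l1 and Nfe2l2 can bind, was in 15.8% of member windows, and Psme4 has 1 of the matches. That is near its 12.4% of all windows and 14.2% of those of genes tested. The CCAAT box (CCAAT) was in 31.6%, against 37.4% of all windows and 36.2% of those of genes tested. Both strands were searched, the motifs differ in length and base composition, and a match describes letters only.

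Levels were compared between genes as CPM per kilobase of exons (GENCODE annotation of mm10). In controls they spanned from 0.673 for Psmd9, an assembly chaperone, to 260.5 for Psma6, an alpha ring subunit. After Psma6 came Psma5 at 217 ± 35.5 CPM per kilobase (SD, n = 4) and Psmd14 at 200.1 ± 23.5, whose ranges over kidneys overlapped. Subunits that are present in equal numbers in the complex differed widely. The alpha ring ran from 7.75 (Psma3) to 260.5 and the beta ring from 2.28 (Psmb1) to 165 (Psmb5) CPM per kilobase, so these counts are not a measure of subunit stoichiometry. Assembly chaperones were lowest, with a median of 1.39, against 88.6 for the beta ring and 88.1 for the 19S ATPases. By rank among the 42, Psmd11 stood at 18 in controls, at 8 in set A and at 9 in set B. In the same order of groups, Psma7 stood at 23, 17 and 18 and Psme4 at 21, 26 and 27.

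**Figure D1:**
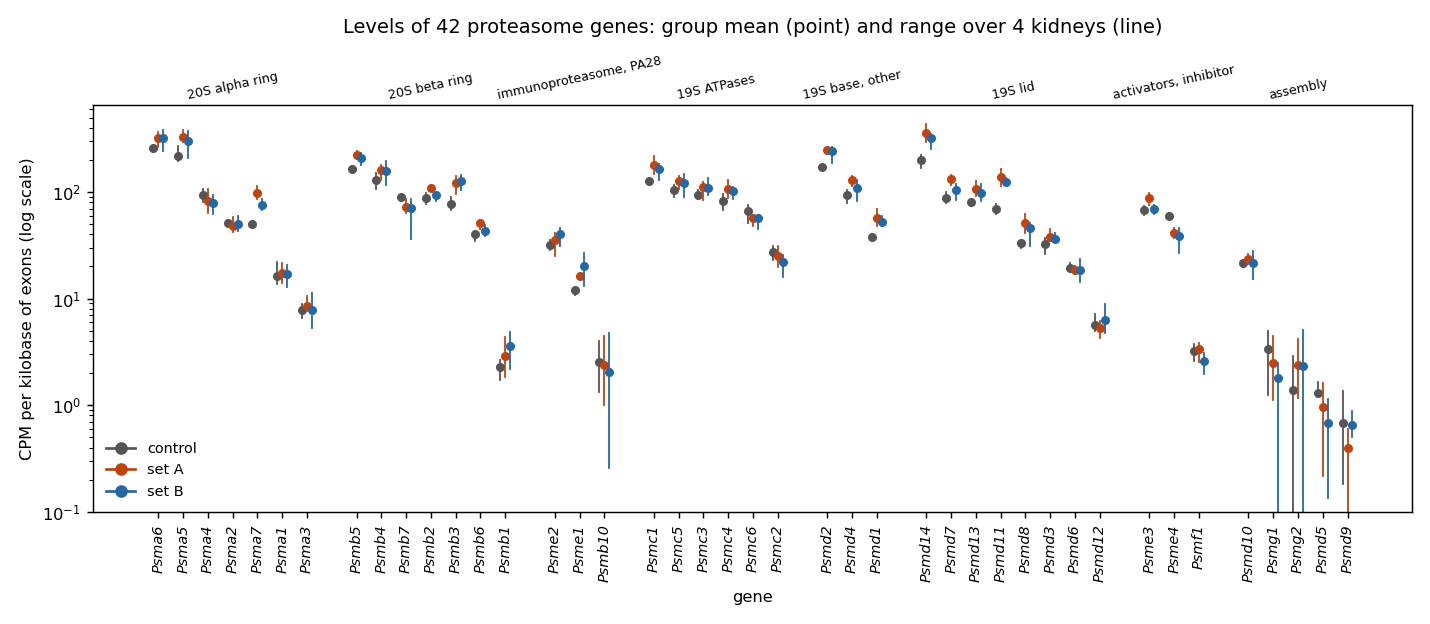
CPM per kilobase of exons (log axis) of the 42 members, grouped by role, with the mean (point) and the range (line) over the 4 kidneys of each group. Lines that reach the lower edge include a kidney at or below 0.1, and the alpha ring alone spans from 7.75 to 260.5 in controls.

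Most proteasome genes had fold changes above control after ischemia, and a smaller number passed the test. Of the 42, 30 had a log2 fold change above 0 in set A and 28 in set B, beside 49.1% and 49.2% of all genes. All 42 members passed the filter on low counts. In set A against control, edgeR's quasi-likelihood test at a Benjamini-Hochberg adjusted p below 0.05 called 12 members higher and 1 lower, and 29 did not pass. Over all 11664 genes tested, 10.5% were called higher and 11.7% lower in that comparison. The median log2 fold change was 0.28 over members and -0.02 over all genes. In set B against the same 4 controls, 7 members were higher and 1 was lower, beside 10.9% and 11.9% of all genes, and 34 did not pass. The median log2 fold change there was 0.18 over members and -0.02 over all genes. Groups did not overlap for 17 members on the higher side and 1 on the lower side in set A (13.2% and 15.2% of all genes), and for 8 and 2 in set B (12.1% and 14.7%). The comparisons share their controls, so their values are set side by side and not combined. For any single gene, groups of 4 that do not overlap give 0.0286 in a two-sided exact permutation test, the smallest p this design allows.

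Precision depended on level. For the 37 members with a mean of 10 CPM or more, the standard error of the log2 fold change in set A had a median of 0.15. For the 5 below it (Psmb10, Psmd5, Psmd9, Psmg1 and Psmg2) it was 0.63 to 1.24, so changes of the size seen elsewhere in the complex were not detectable in them. Spread within groups also differed: the median coefficient of variation of the 37 was 9.53% in controls, against 13.4% in set A and as much as 17.4% in set B. Within the latter, replicate 4 was the lowest kidney for 23 of the 37 and the highest for 4. Without it, 11 members were called in set B (10 higher and 1 lower, 7 of them among the 8 above), the median log2 fold change was 0.26, and 16 were called in set A, where it enters the shared estimate of spread. Over all genes, the share called then went from 22.8% to 20.7% in set B and from 22.3% to 23.7% in set A. The median of set B also moved by over 1.5-fold without replicate 1, to 0.11, and without replicate 2, to 0.12.

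**Figure D2:**
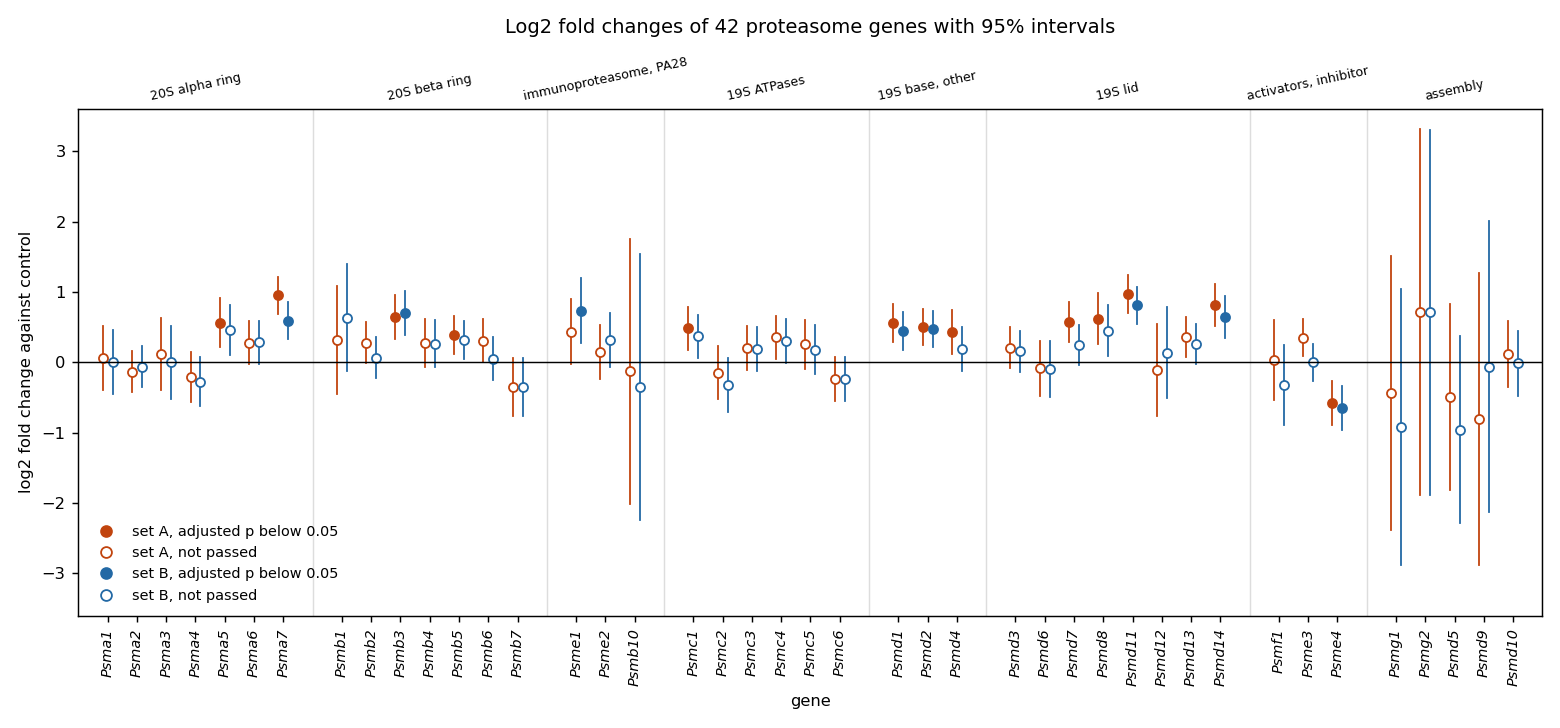
Log2 fold change against control of the 42 members by role, in set A (orange) and set B (blue), with approximate 95% intervals computed from edgeR's F statistic. Filled points passed an adjusted p of 0.05. Most points lie above 0, Psme4 is the filled pair below it, and the widest intervals belong to 4 of the assembly chaperones and Psmb10.

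Of the 7 alpha ring genes, 2 rose in set A (Psma7 and Psma5) and 1 in set B (Psma7). That is 28.6% and 14.3%, beside 10.5% and 10.9% of all genes. Psma7 stood at 150.2, 157, 148 and 157 CPM in controls, at 350.4, 293, 266 and 296 CPM in set A and at 226, 236, 264 and 209 CPM in set B. Every ischemic kidney lay above every control, and the controls differed by little. It rose 1.94-fold in set A (log2 0.95, SE 0.13, adjusted p = 9.68e-06 by edgeR) and 1.51-fold in set B (log2 0.59, SE 0.12, adjusted p = 0.00143), and it passed with any 1 kidney left out. Psma5 stood at 271, 256, 357 and 264 CPM in controls, 388, 502, 391 and 447 CPM in set A and 446, 493, 380.1 and 278 CPM in set B. Control replicate 3 was high and set B replicate 4 low, which made set B overlap the controls. Psma5 rose 1.48-fold in set A (log2 0.56, SE 0.17, edgeR adjusted p = 0.0197), a call that was lost without control replicate 1, 2 or 4 or set A replicate 2 or 4, with adjusted p up to 0.0676. In set B its log2 fold change was 0.46 (adjusted p = 0.0591 by edgeR), and it passed in 6 of 20 alternatives. With all kidneys these were DESeq2 (adjusted p = 0.0253), its size factors in edgeR (0.0418), library totals (0.038) and the filter at 1 CPM (0.0444). The others were edgeR without set B replicate 4 (log2 0.60, adjusted p = 0.00445) or control replicate 3 (adjusted p = 0.0238). In Psma5, 23.7% of 100-base exon windows, the read length, also occur in Gm8394 or Gm12989. Psma6, the highest of the ring in controls by CPM per kilobase, did not pass (log2 fold change 0.27 in set A, against 0.28 in set B). In Psma3, 13.4% of windows also occur in Gm13835. The other 4, Psma1 to Psma4, had log2 fold changes of -0.21 to 0.12 in set A and from -0.27 to 0.01 in set B, and none passed.

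In the beta ring, 2 of 7 genes rose in set A (Psmb3 and Psmb5) and 1 in set B (Psmb3). These are 28.6% and 14.3%, beside 10.5% and 10.9% of all genes. Psmb3, a structural subunit without a proteolytic site, stood at 157, 182, 207 and 159.6 CPM in controls, 272, 322, 312 and 222 CPM in set A and 311, 329.8, 286 and 241 CPM in set B. The lowest ischemic kidney lay above the highest control. It rose 1.57-fold in set A (log2 0.65, SE 0.15, edgeR adjusted p = 0.00321) and 1.63-fold in set B (log2 0.70, SE 0.15, adjusted p = 0.00159), with any 1 kidney left out as well. Psmb4, the highest of the ring by mean CPM, had log2 fold changes of 0.28 and 0.27 and did not pass in either comparison (adjusted p = 0.269 and 0.288 by edgeR). The set B value was 0.40 (edgeR adjusted p = 0.0568) without set B replicate 4, 0.12 (adjusted p = 0.728) without its replicate 2 and 0.17 (adjusted p = 0.61) without control replicate 1.

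Of the 3 constitutive proteolytic subunits, 1 rose in set A, where 10.5% of all genes rose. Psmb5, with the chymotrypsin-like site, stood at 135, 156, 157 and 147 CPM in controls, 195, 199.8, 216 and 183 CPM in set A and 194, 208, 189 and 162 CPM in set B. All ischemic kidneys lay above the controls. It rose 1.31-fold in set A (log2 0.39, SE 0.13, edgeR adjusted p = 0.0346), but this call passed in only 3 of 12 fits that left out 1 kidney, those without set A replicate 1 and without set B replicate 2 or 4, and the adjusted p reached 0.113 without control replicate 1. The call was also lost without the low-count filter (edgeR adjusted p = 0.0701). In set B its log2 fold change was 0.32 (adjusted p = 0.0873), and it passed without replicate 4 (log2 0.39, adjusted p = 0.0337) and under DESeq2 (adjusted p = 0.0193). Reads of Psmb5 are also less certain, since 22.2% of its 100-base windows occur in Gm3375 or in Mir686, which overlaps 12.1% of its exon bases on the same strand. Psmb6, with the caspase-like site, stood at 80.1, 80.0, 65.0 and 80.2 CPM in controls, 97.2, 100.4, 102 and 84.7 CPM in set A and 73.1, 74.6, 91.2 and 82.6 CPM in set B. Set A lay above the controls and set B overlapped them, and neither passed (log2 fold changes 0.31 and 0.05, edgeR adjusted p = 0.152 and 0.885). Psmb7, with the trypsin-like site, stood at 281, 308, 311 and 324 CPM in controls, 239, 293, 233 and 217 CPM in set A and 284, 266, 295 and 125 CPM in set B. Its log2 fold changes were -0.35 and -0.36 and did not pass (adjusted p = 0.258 and 0.234 by edgeR). In set A, Psmb7 passed as lower once set B replicate 4 was left out of the fit (adjusted p = 0.0343), and the set B value then was -0.14. Of its exon bases, 11.8% overlap Nek6 on the opposite strand.

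Of the 6 ATPase genes of the 19S base, which drive unfolding, 1 (Psmc1) rose in set A (16.7%, beside 10.5% of all genes). In set B 0 were called, beside 10.9% of all genes higher and 11.9% lower. There edgeR gave 1 with an unadjusted p below 0.05 (32.7% of all genes) and DESeq2 called Psmc1. Psmc1 stood at 230.1, 251, 256 and 236 CPM in controls, 345, 287, 327 and 421 CPM in set A and 352, 335, 340.1 and 249 CPM in set B. Only set B replicate 4 lay within the control range among the ischemic kidneys. Psmc1 rose 1.40-fold in set A (log2 0.48, SE 0.14, edgeR adjusted p = 0.0197), and lost the call without control replicate 1, control replicate 4 or set A replicate 4, with adjusted p up to 0.11. In set B its log2 fold change was 0.37 (edgeR adjusted p = 0.0746), and it passed under DESeq2 (adjusted p = 0.0289), with its size factors (0.0488), with library totals (0.0446) and without replicate 4 (log2 0.48, adjusted p = 0.0119). The other 5 ATPase genes ran from -0.24 to 0.36 in set A and from -0.32 to 0.30 in set B on the log2 scale and did not pass.

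The scaffold genes of the base, Psmd1 and Psmd2, rose in each ischemic set. Psmd2 stood at 647, 726, 721 and 665 CPM in controls, 927, 1054, 1013 and 982 CPM in set A and 1073, 1052, 1011 and 759 CPM in set B. Set B replicate 4 was the lowest ischemic kidney and still above the controls. Psmd2 rose 1.42-fold in set A (log2 0.50, SE 0.12, edgeR adjusted p = 0.00432) and 1.39-fold in set B (log2 0.48, SE 0.12, adjusted p = 0.00637), also with any 1 kidney left out. Psmd1 averaged 277 ± 17.4 CPM in controls, 414 ± 65.3 CPM in set A and a mean of 382 ± 36.0 CPM in set B (SD, n = 4), without overlap. It rose 1.47-fold in set A (edgeR adjusted p = 0.00288) and 1.36-fold in set B (adjusted p = 0.0151), where the call was lost without control replicate 3 (adjusted p = 0.0607) or set B replicate 2 (0.0837). Psmd4, the ubiquitin receptor, averaged 263 ± 30.3, 362 ± 36.3 and 305 ± 55.8 CPM. It rose 1.35-fold in set A (edgeR adjusted p = 0.0398), but passed in only 3 of 12 fits that left out 1 kidney, those without control replicate 2, set A replicate 1 or set B replicate 4, and its adjusted p reached 0.138 without set A replicate 4. In set B it did not pass (log2 fold change 0.19). The value ran from 0.08 to 0.31 with 1 kidney left out, the highest without set B replicate 4 (edgeR adjusted p = 0.11).

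The lid held the largest rise. Of its 8 genes, 4 rose in set A (Psmd11, Psmd14, Psmd8 and Psmd7) and 2 in set B (Psmd11 and Psmd14). That is 50% and 25%, beside 10.5% and 10.9% of all genes. Psmd11, which ties the lid to the base and the core, stood at 422, 488, 454 and 400.3 CPM in controls, 723, 856, 877 and 1060.3 CPM in set A and 855, 783, 729 and 779 CPM in set B. All ischemic kidneys lay far above the controls, and set B was the tighter of the ischemic sets, with replicate 4 among its others. It rose 1.96-fold in set A (log2 0.97, SE 0.13, edgeR adjusted p = 8.69e-06) and 1.75-fold in set B (log2 0.81, SE 0.13, adjusted p = 6.89e-05). Over the alternatives tried, its adjusted p was at most 7.13e-05 in set A and 0.00054 in set B by edgeR, DESeq2 or limma. Psmd14, the deubiquitinase that cuts the ubiquitin chain from the substrate, stood at 471, 583, 627 and 577 CPM in controls, 839, 1223, 973 and 1010.0 CPM in set A and 945, 936, 994 and 716 CPM in set B. No ischemic kidney fell within the control range. It rose 1.76-fold in set A (log2 0.81, SE 0.14, edgeR adjusted p = 0.000213) and 1.56-fold in set B (log2 0.64, SE 0.14, adjusted p = 0.00187), also with any 1 kidney left out.

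Psmd7, the structural partner of the Psmd14 protein, stood at 183, 205, 179 and 226 CPM in controls, 329, 307, 301 and 266 CPM in set A and 267, 248, 247 and 191 CPM in set B. Set A lay above the controls, and 1 kidney of set B, replicate 4, lay among them. Psmd7 rose 1.49-fold in set A (log2 0.57, SE 0.14, edgeR adjusted p = 0.0038) and did not pass in set B (log2 0.24, adjusted p = 0.24), where the value was 0.34 (adjusted p = 0.0638) without replicate 4 and 0.16 (adjusted p = 0.528) without replicate 1. Psmd8 stood at 107, 106, 97.9 and 90.7 CPM in controls, 125, 178, 136 and 189 CPM in set A and 158, 95.7, 157 and 148 CPM in set B. Here replicate 2 of set B, not replicate 4, lay within the control range. Psmd8 rose 1.54-fold in set A (log2 0.62, SE 0.17, edgeR adjusted p = 0.012), a call lost without set A replicate 4 (adjusted p = 0.0602). In set B its log2 fold change was 0.45 (adjusted p = 0.0708), and it passed without replicate 2 (log2 0.56, adjusted p = 0.0199) and under DESeq2 (adjusted p = 0.043). The remaining lid genes, Psmd3, Psmd6, Psmd12 and Psmd13, had log2 fold changes of -0.11 to 0.36 in set A and from -0.10 to 0.26 in set B and did not pass. Of the exon bases of Psmd13, 10.1% overlap Sirt3 on the opposite strand.

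**Figure D3:**
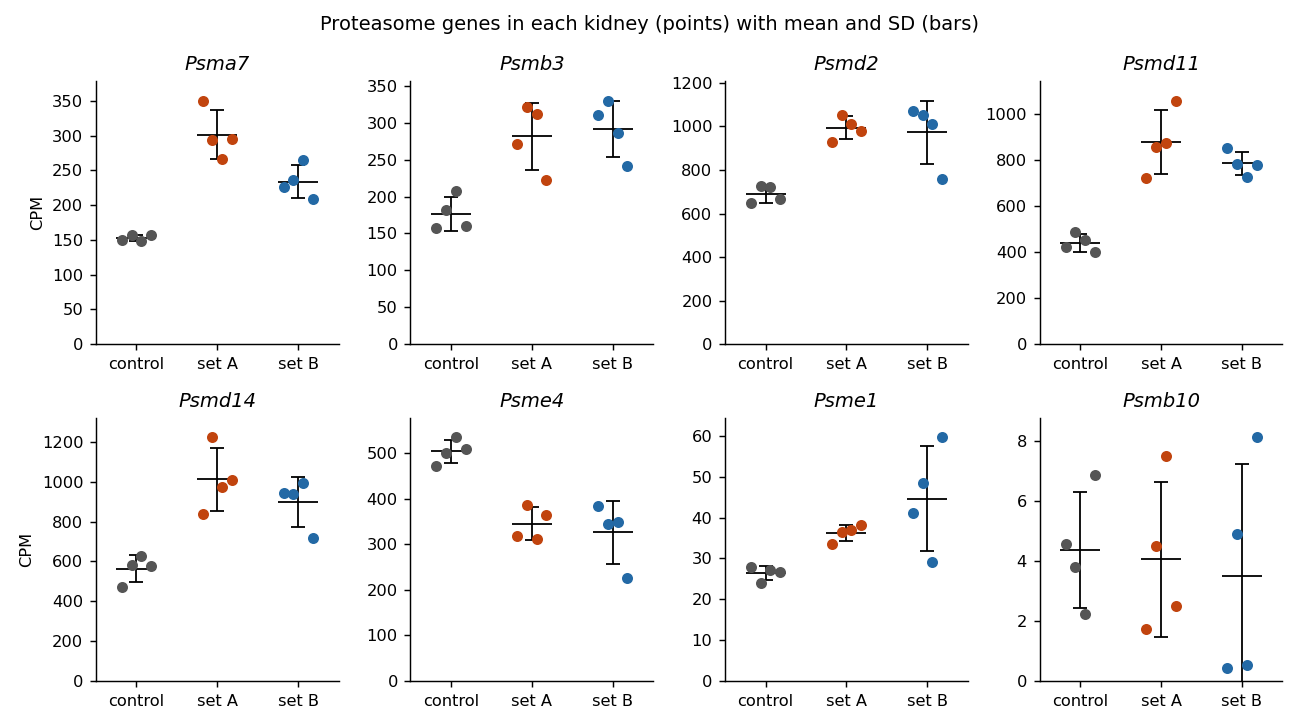
CPM in each kidney (points), with the group mean and SD (bars, n = 4), for 8 members in control, set A and set B; each axis starts at 0. Psma7, Psmb3, Psmd2, Psmd11 and Psmd14 lie higher in every ischemic kidney than in any control, Psme4 lies lower, and Psmb10 overlaps throughout.

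Psme4 was the member that fell. It encodes PA200, a nuclear activator that caps the core without ATPases. It stood at 473, 501, 535 and 509 CPM in controls, 318, 386, 312 and 364 CPM in set A and 385, 346, 349 and 225 CPM in set B. Every ischemic kidney lay below every control, and set B replicate 4 was the lowest of all. The level was 1.49-fold lower in set A (log2 -0.57, SE 0.15, edgeR adjusted p = 0.00776) and 1.57-fold lower in set B (log2 -0.65, SE 0.15, adjusted p = 0.00294). Without set B replicate 4 the set B value was -0.50 (adjusted p = 0.0039), and Psme4 passed with any 1 kidney left out in each comparison. Psme3, which encodes PA28 gamma, another nuclear activator, stood at 214, 217, 180.3 and 193 CPM in controls, 275, 290.5, 251 and 224 CPM in set A and 222, 211, 181 and 203 CPM in set B. Set A lay above the controls by a narrow margin, and set B overlapped them. Psme3 did not pass in set A (log2 0.35, SE 0.13, edgeR adjusted p = 0.0536) or in set B (log2 0.00, adjusted p = 0.996). It passed in set A in 8 of 20 alternatives: DESeq2 (adjusted p = 0.0114), its size factors (0.0369), library totals (0.0375), the filter at 1 CPM (0.0315), only the groups compared (0.0287), limma (0.0456), and edgeR without set A replicate 4 (0.0459) or set B replicate 4 (0.0454). In set B the value without replicate 4 was 0.01. Psmf1, the inhibitor PI31, had log2 fold changes of 0.03 and -0.33 and did not pass.

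None of the 5 assembly chaperones passed in either comparison. With edgeR, 0 of them had an unadjusted p below 0.05 (31.5% of all genes in set A), and 4 of the 5 lie below 10 CPM. Psmd5, named after its values were seen, was with Psme4 the other member that was lower without overlap in set B. It stood at 8.54, 11.8, 8.73 and 8.75 CPM in controls and 8.26, 4.97, 5.48 and 0.976 CPM in set B, with a log2 fold change of -0.96 (SE 0.64, edgeR adjusted p = 0.345). In Psmd9, 25.5% of exon bases overlap another gene on the opposite strand. Psmd10, which encodes gankyrin, a chaperone of the 19S base, was the best measured. Its mean was 31.6 ± 2.13 CPM in controls, 34.8 ± 3.62 CPM in set A and a mean of 31.7 ± 7.70 CPM in set B (SD, n = 4). The groups overlapped, and the log2 fold changes of 0.12 and -0.02 had 95% intervals of -0.35 to 0.58 and -0.48 to 0.45. With 1 kidney left out, the set A value ran from 0.04 (without set A replicate 4) to 0.20 (without set A replicate 1), and the set B value was 0.02 without set B replicate 4.

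The catalytic immunoproteasome genes Psmb8, Psmb9 and Psmb10 were listed at 8.13 CPM or less in every kidney. Psmb9, whose protein replaces Psmb6, had no count in 10 of the 12 kidneys, 13 counts in set A replicate 2 and 29 counts in set B replicate 1. Psmb8, whose protein replaces Psmb5, had at most 41 counts in a kidney. The controls listed 0, 0, 0 and 0.847 CPM of Psmb8, set A listed 0.959, 0.695, 0.915 and 0.119 CPM and set B listed 0.836, 2.42, 0 and 0 CPM. The groups overlapped, and Psmb8 did not pass (edgeR adjusted p = 0.749 in set A and 0.673 in set B). A count of 0 allows up to 0.067 to 0.195 CPM, depending on the depth of the library and for counting error only. Psmb10, whose protein replaces Psmb7, stood at 4.57, 3.81, 2.24 and 6.88 CPM in controls, 1.73, 4.51, 7.52 and 2.50 CPM in set A and 0.435, 4.91, 0.543 and 8.13 CPM in set B. Kidneys of set B differed more than 10-fold among themselves. The 95% intervals of the log2 fold change of Psmb10 ran from -2.02 to 1.76 in set A and from -2.24 to 1.54 in set B, so neither a rise nor a fall was detectable. In set B the log2 fold change was -0.35 with replicate 4 and -1.16 without it (edgeR adjusted p = 0.495). Together the 3 genes made up 0.419% to 1.38% of the CPM of the 6 catalytic subunit genes in controls, 0.503% to 1.51% in set A and from 0.0944% to 2.15% in set B.

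The PA28 genes, whose proteins form the interferon-inducible cap, were better measured. Psme1 stood at 27.9, 23.9, 27.1 and 26.6 CPM in controls, 33.6, 36.5, 36.8 and 38.1 CPM in set A and 41.1, 48.5, 29.1 and 59.7 CPM in set B. All ischemic kidneys lay above the controls, set A closely grouped and set B widely spread. It rose 1.67-fold in set B (log2 0.74, SE 0.22, edgeR adjusted p = 0.0205). That call was lost without set B replicate 4, the highest kidney (log2 0.58, adjusted p = 0.0768), without set B replicate 2 (adjusted p = 0.0673) and without control replicate 2 (adjusted p = 0.0632). In set A the log2 fold change was 0.44 (SE 0.22, adjusted p = 0.189). Psme2 stood at 62.9, 57.1, 50.5 and 53.7 CPM in controls, 66.6, 69.5, 72.0 and 43.8 CPM in set A and 55.2, 71.6, 77.1 and 80.9 CPM in set B. The groups overlapped, and it did not pass (log2 0.14 and 0.32, edgeR adjusted p = 0.702 and 0.255). The set A value ran from 0.08 to 0.26 with 1 kidney left out, lowest without set A replicate 3 and highest without its replicate 4. Of its 100-base windows, 18.4% occur in the near-identical Psme2b, which is not in the table, so part of its reads may have been set aside or misplaced.

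Summed over genes, the 14 constitutive core genes held 2246 to 2437 CPM in controls, 2679.7 to 3149 CPM in set A and from 2136 to 3082 CPM in set B. The 17 genes of the 19S particle held 3987 to 4429 CPM in controls, 5441 to 6622 CPM in set A and from 4727 to 6024 CPM in set B. All ischemic kidneys lay above the controls for the 19S sum, while for the core sum set B replicate 4, at 2136 CPM, lay below them. The 42 members took 0.709% to 0.768% of all counts in controls, 0.893% to 1.06% in set A and from 0.75% to 0.977% in set B. The lowest value of set B was again replicate 4, and its other kidneys lay between 0.919% and 0.977%. These sums follow the most abundant genes and are given as a description without a test.

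**Figure D4:**
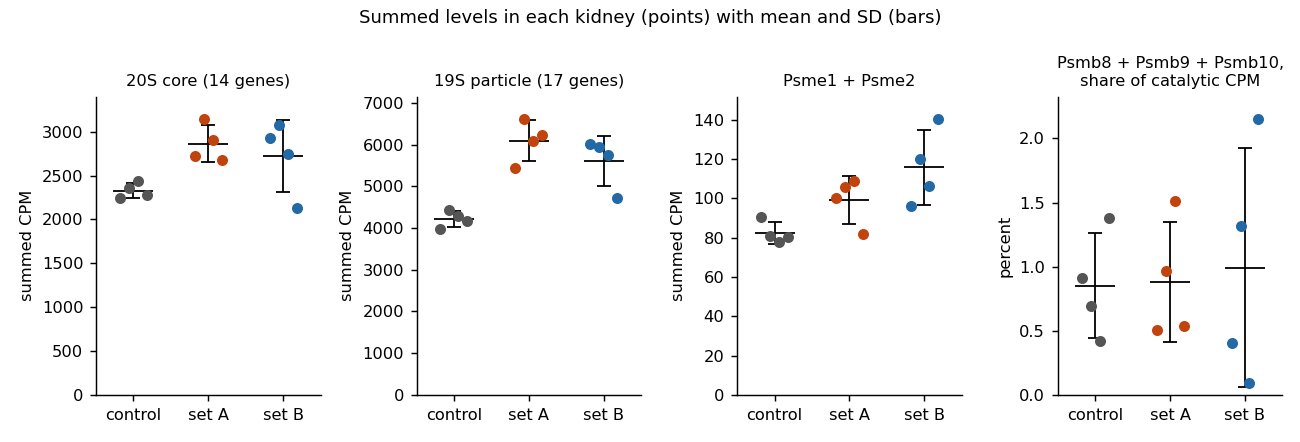
Summed CPM of the 14 core genes, the 17 genes of the 19S particle and Psme1 with Psme2, and the share of catalytic CPM from Psmb8, Psmb9 and Psmb10, in each kidney (points) with mean and SD (bars, n = 4). The 19S sum lies between 3987 and 4429 CPM in controls and at 4727 CPM or above in the ischemic kidneys, and the low point of set B in the core sum is replicate 4.

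Between the ischemic sets, no member passed. Of the 42, edgeR called 0 when set B was tested against set A, beside 0.00857% of all genes (1 of 11664). By unadjusted p below 0.05 it gave 3 members, beside 5.03% of all genes. DESeq2 called 0 members, beside 0.231% of all genes, with 3 members below an unadjusted p of 0.05. The 3 by edgeR were Psma7 (log2 -0.36), Psme3 (log2 -0.34) and Psmd7 (log2 -0.33), each lower in set B, with edgeR adjusted p = 0.93, 0.93 and 0.941. Their values in the 2-group exact permutation test were 0.0286 for Psma7 and Psme3 and 0.0571 for Psmd7. The sets did not overlap for 3 members, each lower in set B (Psma7, Psme3 and Psmb2, the last named after its values were seen), beside 1.25% of all genes lower without overlap. Of the 42, 34 had a log2 fold change below 0, beside 50.7% of all genes, over the same 8 kidneys. That count includes set B replicate 4 and was not taken without it. The median log2 fold change over members was -0.07, beside -0.01 over all genes, and -0.00 without set B replicate 4, -0.15 without set A replicate 1, -0.03 without set A replicate 2 and -0.14 without set B replicate 1 or 2. For the 37 members at 10 CPM or more, the standard error of this log2 fold change had a median of 0.15, and the widest 95% intervals reached 0.525-fold and 2.12-fold. For the 5 below that level the intervals reached 0.166-fold and 7.08-fold.

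Other genes of the pathway were read from lists that hold no member. Of 11 proteasome partners in the table, 10 were tested, and Zfand5 rose and Akirin2 fell in each comparison. That is 10% in each direction, near the 10.5% higher and 11.7% lower of all genes in set A and the 10.9% and 11.9% in set B. Zfand5, whose protein binds and stimulates the proteasome, averaged 163 ± 23.4 CPM in controls, 269 ± 54.3 CPM in set A and a mean of 263 ± 38.9 CPM in set B (SD, n = 4). It rose 1.62-fold in set A (edgeR adjusted p = 0.00374) and 1.59-fold in set B (adjusted p = 0.00531). Akirin2, whose protein carries proteasomes into the nucleus, averaged 33.6 ± 7.20, 18.5 ± 2.56 and 17.4 ± 1.01 CPM. The level was 1.85-fold lower in set A (edgeR adjusted p = 0.013) and 1.97-fold lower in set B (adjusted p = 0.00686). The set A call was lost without control replicate 3 (adjusted p = 0.062).

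Of 13 genes of ubiquitin supply and delivery reported here, 1 rose in each comparison (7.69%, against 10.5% of all genes in set A and 10.9% in set B). Uba1, the ubiquitin-activating enzyme, rose 1.27-fold in set A (edgeR adjusted p = 0.0143), and Rps27a, a ubiquitin fusion gene, rose 1.35-fold in set B (adjusted p = 0.0463); both were named after their values were seen.

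Among 5 tested of 6 genes for transcription factors and their activation, 0 were called in set A (1 by unadjusted p below 0.05 with edgeR, beside 31.5% of all genes) and 1 was called higher in set B, beside 10.9% of all genes. Nfe2l1 stood at 1091, 836, 847 and 803 CPM in controls, 919, 1058, 1068 and 1192 CPM in set A and 784, 1005, 1303 and 1505 CPM in set B. The groups overlapped, and it did not pass (log2 0.22 and 0.34, edgeR adjusted p = 0.376 and 0.138). The set A value was 0.13 without set A replicate 4 (edgeR adjusted p = 0.707). Without set B replicate 1, the set B value passed at log2 0.46 (edgeR adjusted p = 0.0227), and without set B replicate 4 it was 0.19 (adjusted p = 0.425). Nfe2l2, the related factor of the oxidative stress response, averaged 16.4 ± 6.61 CPM in controls, 26.1 ± 8.35 CPM in set A and a mean of 36.9 ± 8.46 CPM in set B (SD, n = 4). It rose 2.19-fold in set B (edgeR adjusted p = 0.0161), and lost the call without control replicate 1 (adjusted p = 0.0503) or set B replicate 3 (adjusted p = 0.0624). Of 7 genes for peptide loading on MHC class I, 6 were tested and 0 were called in either comparison with control. Over all genes, 10.5% were called higher and 11.7% lower in set A, and 10.9% and 11.9% in set B. With edgeR, 0 of the 6 had an unadjusted p below 0.05, beside 31.5% of all genes in set A and 32.7% in set B.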

How the data were processed

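RNA of 12 mouse kidneys was sequenced in single libraries, 1 per kidney, from poly(A)-selected RNA with a kit that marks strand. The authors deposited 1 table of whole-number read counts per gene. The submitters' processing notes name FastQC, STAR, HTSeq and edgeR and the genome build mm10; the reads were 100 bases long, and versions and the strand setting of the counting are not given in the sources used here. All columns of the table were matched to samples by the sample names in the labels. Groups follow the sample titles, since the titles and the group entries of the ischemic kidneys contradict each other. Nothing says whether kidneys of a group were handled on separate days, so p-values measure the spread between these kidneys. No pair of kidneys in a group agreed within counting error (chi-square per degree of freedom at least 48.9).

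CPM were computed from column sums. Genes were filtered with filterByExpr (minimum count 10, minimum total 15), which kept 11664 genes, and tested with edgeR 4.0.16 in R 4.3.3: trimmed mean of M values (TMM) scaling, glmQLFit and glmQLFTest over all 12 kidneys with 1 coefficient per group, two-sided, with Benjamini-Hochberg adjustment over all genes tested and a threshold of 0.05. The common biological coefficient of variation was 0.762 and TMM factors were 0.968 to 1.03. Single genes were also compared with a two-sided exact permutation test (SciPy 1.17.1), and fold-change intervals are at 95%. Standard errors (SE) were computed as the absolute log2 fold change over the square root of edgeR's F statistic. The intervals were built from these with a t distribution and are approximate. A count floor of 3 gives the level that 0 counts allow, for counting error only. Checked on simulated data for set A against control with 10991 genes, the fit recovered 30 of 96 genes changed 2-fold (30 of 54 at 10 CPM or more) and 57 of 104 changed 4-fold, with 0 wrong signs and 10 false calls. Alternatives were DESeq2 1.42.0, its size factors in edgeR, library totals without TMM (added after seeing the data), no low-count filter, more than 1 CPM in at least 4 kidneys, only the groups compared, a replicate block, limma 3.58.1 on log2 CPM with a prior count of 2, and leaving out each kidney.

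Named with values are the 5 immunoproteasome genes, Psmb5 to Psmb7, per comparison with control the 5 largest rises and 5 largest falls past the threshold, the 3 smallest p between the ischemic sets, the member of highest mean CPM in each role, and from the other lists genes past the threshold in the same direction in each set, with Nfe2l1 and Nfe2l2. Psmd1 and Psmd4 passed outside this rule and were named after their values were seen. The members and lists were chosen with earlier results of these data known. Some genes of the other lists are not reported here. Paaf1, Psme2b, Psme3ip1 and Hbb-bs were not used here, and Shfm1, AI314180, Ufd1l and Emr1 stand for newer symbols. Of the other tissue markers, 5 were in the table and their sum was at most 1.61 CPM in a kidney.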

Additional observations from a re-analysis of the deposited data

Results flagged for a closer look

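Among 80 sets of 4 kidneys tested, those of the named genes, 9 had 1 kidney far from the others by Dixon's criterion at 95%; chance marks about 1 in 20 such sets. In 3 of them all other kidneys were at 0: Psmb8 in control replicate 4 (0.847 CPM), Psmb9 in set A replicate 2 (0.564 CPM) and Psmb9 in set B replicate 1 (0.970 CPM). In set B, replicate 4 was low for Psmb7 at 125.1 CPM (266 to 295 CPM in the others) and for Psmc1 at 249 CPM (335 to 352 CPM). Replicate 2 of set B was low for Psmd8 at 95.7 CPM, with 148 to 158 CPM in the others. Among controls, replicate 3 was low for Psmb6 at 65.0 CPM (80.0 to 80.2 CPM) and high for Psma5 at 357 CPM (256 to 271 CPM), and replicate 1 was high for Nfe2l1 at 1091 CPM (803 to 847 CPM).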

How the results depend on the processing

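The count of members called stayed within 9 to 16 (set A) and 7 to 12 (set B) over all alternatives, and at 0 between the ischemic sets. Leaving out 1 kidney gave 9 to 16 and 7 to 11, with 17.9% to 23.7% and 18.5% to 21.97% of all genes called. DESeq2 gave 16 and 12, with 25.5% and 26.3% of all genes, beside 22.3% and 22.8% by edgeR with all kidneys. The median log2 fold change with 1 kidney left out ran from 0.23 to 0.32 in set A, 0.11 to 0.26 in set B and -0.15 to -0.00 between the sets. Replicate numbers did not pair the kidneys: correlations of their deviations between same-numbered kidneys were -0.06 to 0.05 in 12 pairs, and a replicate block left 13, 8 and 0 members called, the counts without it, and changed no call of a gene named by the rule. Values near 0 that did not pass changed sign. Psmd10 in set B was 0.011 with DESeq2, 0.012 with its size factors, 0.0018 with library totals, 0.012 with more than 1 CPM in 4 kidneys, and -0.20 to 0.11 with 1 kidney left out. Psme3 in set B was -0.017 without the low-count filter and -0.065 to 0.045 with 1 kidney left out, and Psmb6 in set B was -0.029 to 0.075. Psmb10 ran from -0.60 to 0.19 in set A, -1.16 to 0.0043 in set B and -1.03 to 0.23 between the sets. For these genes the cause was not tested. Groups of 4 kidneys limit what can be seen to changes well above the spread, and genes below 10 CPM had intervals too wide for changes of the size described. The labels do not settle which ischemic set was anaesthetised.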
